A study of Rattus norvegicus with 6 samples.

Results

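The potassium channel genes described here are all genes whose rat symbol starts with Kcn, the prefix shared by the pore-forming and accessory subunits of potassium channels. They were found through the transcript accession that the array design gives for each probe, matched to RefSeq. Membership followed from the symbol alone, but the rule was chosen with earlier results of these data known. The array held 91 Kcn genes, read by 122 probes, out of 15443 genes with a symbol. Of the 91, 83 were bright enough to be tested.

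Transcripts were measured in rat brain tissue on 6 single-colour arrays, 3 from rats after a sham operation and 3 from rats with intracerebral hemorrhage (ICH), which is bleeding into the brain. The ICH tissue is labelled as peripheral, and the series title speaks of injury around the hematoma, the clot that the bleeding leaves. The question was which transcripts differ there from sham tissue. The labels put day 1 under age for all 6 samples without saying what is counted, and they give no genetic change and no drug for either group. The strain, the sex, the brain region dissected and the way the hemorrhage was made are not given in the sources used here. The design text calls the non-control replicates transfected, a word that no sample label uses, so the groups were taken from the sample labels. The arrays of a group are called biological replicates in the labels.

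Potassium channels let potassium leave a cell along its gradient, which sets the resting potential and ends each action potential. Voltage-gated (Kv) channels open on depolarization, calcium- and sodium-activated channels follow those ions inside the cell, inward rectifiers (Kir) pass current near rest, and two-pore-domain (K2P) channels carry leak current. In brain, neurons use different sets of them in axons, dendrites and at synapses, astrocytes take up potassium released by firing neurons, and microglia, vessel cells and the choroid plexus have channels of their own.

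The values are log2 levels relative to the 75th percentile of each array, so a level of −3.48 lies 3.48 log2 units under that percentile. A level is compared only with the same gene on other arrays, since probes differ in brightness for reasons of their own. Each array held 58717 spots other than controls, 81.8% to 85.4% of which were well above background, and 0 were saturated. Across genes the sham arrays correlated with each other at 0.985 to 0.991 and the ICH arrays at 0.949 to 0.980, and 0 pairs of arrays held identical values. The 3 sham arrays and ICH 1 shared the first row of the slide, and ICH 2 and ICH 3 lay in the second. Markers of brain tissue were present: 13 of 13 tested neuronal markers, 12 of 12 astrocyte markers and 12 of 12 oligodendrocyte markers were well above background on all 6 arrays. The number of arrays limits the precision, and an exact permutation test on 3 against 3 arrays cannot go below a two-sided p of 0.1.

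The sequence just upstream of 4 channel genes is shown because these genes were among the Kcn genes with the lowest p, 2 of them higher on the ICH arrays and 2 lower. Each is the 250 bases before the RefSeq transcript start, from the promoter table of assembly GRCr8, written 5′ to 3′ on the strand of the gene, which is the minus strand in all 4. Capitals mark the GC box GGGCGG or its reverse complement, to which factors of the Sp family bind. The regions are chr18:76083689-76083938 for Kcng2, chr11:47778349-47778598 for Kcnj6, chr4:161043810-161044059 for Kcna5 and chr13:103438643-103438892 for Kcnk2.
Kcng2: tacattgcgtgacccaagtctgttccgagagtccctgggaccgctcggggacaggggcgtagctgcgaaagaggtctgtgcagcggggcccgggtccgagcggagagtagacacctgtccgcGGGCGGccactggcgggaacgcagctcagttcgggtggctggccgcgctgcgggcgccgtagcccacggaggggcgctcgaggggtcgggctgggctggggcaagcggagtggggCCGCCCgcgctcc
Kcnj6: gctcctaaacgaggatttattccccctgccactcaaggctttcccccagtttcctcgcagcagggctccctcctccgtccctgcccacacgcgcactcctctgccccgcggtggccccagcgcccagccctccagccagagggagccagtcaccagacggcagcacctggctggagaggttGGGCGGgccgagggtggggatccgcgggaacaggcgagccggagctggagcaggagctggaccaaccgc
Kcna5: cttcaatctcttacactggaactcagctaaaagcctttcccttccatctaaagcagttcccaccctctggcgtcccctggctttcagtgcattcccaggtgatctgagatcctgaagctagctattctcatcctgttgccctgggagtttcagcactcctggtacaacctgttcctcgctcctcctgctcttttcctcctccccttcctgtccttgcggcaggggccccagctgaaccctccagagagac
Kcnk2: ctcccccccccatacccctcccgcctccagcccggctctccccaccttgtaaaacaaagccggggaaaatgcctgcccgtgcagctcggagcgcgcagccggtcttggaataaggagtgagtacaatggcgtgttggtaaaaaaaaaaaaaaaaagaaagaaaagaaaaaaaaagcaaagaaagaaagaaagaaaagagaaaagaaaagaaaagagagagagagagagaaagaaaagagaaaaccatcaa

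Kcng2 held 2 GC boxes and Kcnj6 held 1, and the letters were not found in the windows of Kcna5 and Kcnk2. A GC box stood in 48.4% of the 62 Kcn promoters in the table and in 32.4% of all 27457 promoters of that length, and the median GC content was 60.2% and 52.0%. Among the 15 promoters found for the 17 genes with an unadjusted p under 0.05, 8 held one. The other motifs were searched on both strands too, and none of the 5 contains another. CAGATG, bound by factors of the NeuroD family, was in 1 of the 62 Kcn promoters against 13.7% of all, and TGANTCA, bound by AP-1, in 2 against 6.36%. TGACGTCA, the cyclic AMP response element, was in 0 against 1.70%, and TATAAA in 2 against 13.1%. These are matches of letters and not sites, and a missing match says nothing about the factor.

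As a set, the Kcn genes did not shift one way. Over the 83 genes tested, 38 were higher and 45 lower in the mean of the ICH arrays, with a median difference of −0.05 beside −0.01 over the 12963 genes tested. The limma test, adjusted over all 22179 rows by Benjamini-Hochberg, called 0 of the 83 at an adjusted p under 0.05, as it called 0% of all genes tested. At an unadjusted p under 0.05 there were 10 higher and 7 lower Kcn genes, 12.0% and 8.43% of the 83, beside 7.02% and 7.34% of all genes. Every ICH array lay above every sham array for 11 Kcn genes, 13.3% beside 12.3% of all genes, and below for 12, 14.5% beside 15.6%. Each difference below is ICH minus sham on the log2 scale, ± SE from limma, with n = 3 arrays in each group. The values of a group are given in the order of replicates 1 to 3. Where fewer cells of a type and less RNA per cell would both lower a level, bulk tissue cannot tell them apart.

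**Figure D1:**
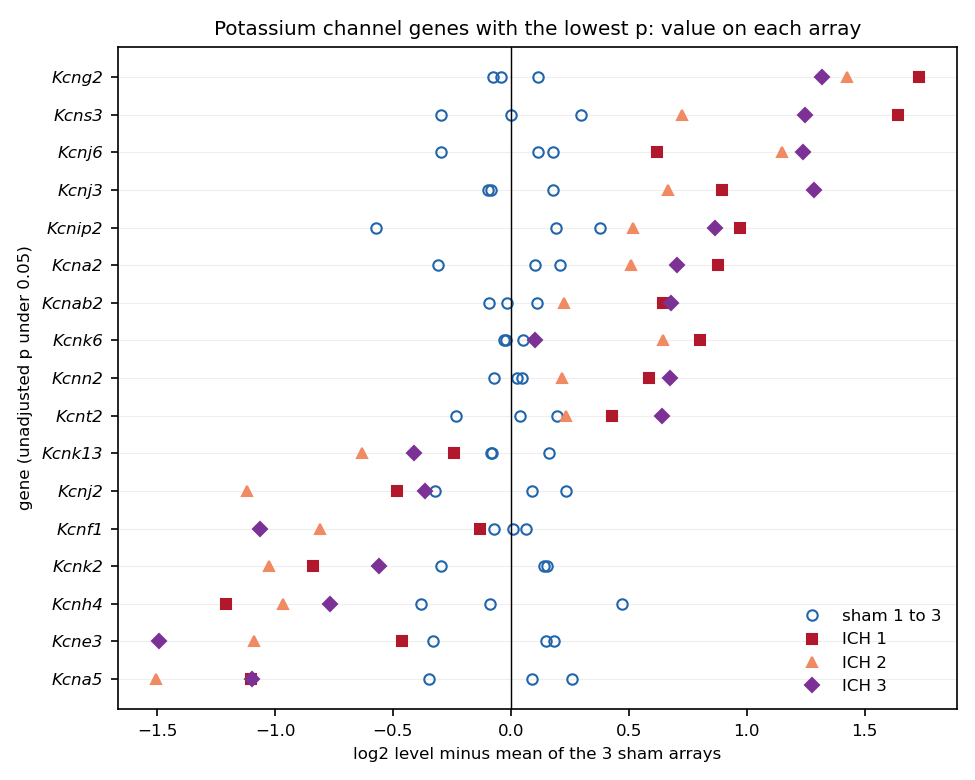
Log2 level of each of the 17 Kcn genes with an unadjusted p under 0.05 on each of the 6 arrays, minus the mean of the 3 sham arrays (x axis), with 1 gene per row; open circles are sham arrays and filled symbols are ICH 1, 2 and 3. The groups do not overlap for any of the 17, and Kcng2 at the top has its ICH arrays 1.32 to 1.73 above the sham mean.

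The counts moved with single arrays and with the scaling, as did the shares over all genes. Without ICH 2 they were 15 higher and 6 lower, beside 9.66% and 8.45% of all genes. Without ICH 3 they were 9 and 14, beside 11.46% and 10.1%, and without ICH 1 they were 6 and 7, beside 4.72% and 6.14%. Without sham 1 they were 6 and 4, beside 3.52% and 2.51%, without sham 2 they were 7 and 5, beside 4.02% and 4.11%, and without sham 3 they were 6 and 6, beside 3.82% and 3.50%. With each array centred on its spike-in probes, the median difference over all genes went from −0.01 to 0.36. At an unadjusted p under 0.05, 17 Kcn genes were then higher and 1 lower, beside 16.8% and 0.941% of all genes. The 7 lower genes kept their sign and stood at −0.87 to −0.059. By sign alone 60 of the 83 were higher and 23 lower, so the counts by family below hold relative to the scaling used. Centring on the median gave 7 and 8, beside 4.37% and 9.003% of all genes. With slide row as a blocking factor, where the difference rests on ICH 1 against the sham arrays, the counts were 9 and 3, beside 6.13% and 5.19% of all genes. That block put Kcnj6 at 0.62, Kcnk6 at 0.80, Kcnk13 at −0.24 and Kcne3 at −0.46. The 17 genes kept their sign under all 20 alternatives that could be computed for them, 19 for Kcne3. Their groups do not overlap, so leaving out an array, array weights, the blocks and the variance model could not turn the sign. Only the other alternatives could have done so.

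ICH 2 stood apart over all genes as well as in this set. Across genes it correlated with the other arrays at 0.947 to 0.960, where pairs without it stood at 0.967 to 0.991. ICH 2 was the highest array for 10 of the 83, 12.0%, beside 25.4% of all genes. It was the lowest of the 6 arrays for 37 of the 83 Kcn genes, 44.6%, beside 37.5% of all genes. The median Kcn gene stood at 0.05, −0.38 and 0.06 relative to the sham mean on the ICH arrays, where the median of all genes stood at 0.05, −0.08 and −0.03. Kcn genes had a median SD of 0.25 in the sham group and 0.40 in the ICH group, beside 0.13 and 0.29 for all genes. Sham 2 was the lowest array for 19 of the 83, 22.9%, beside 10.8% of all genes.

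**Figure D2:**
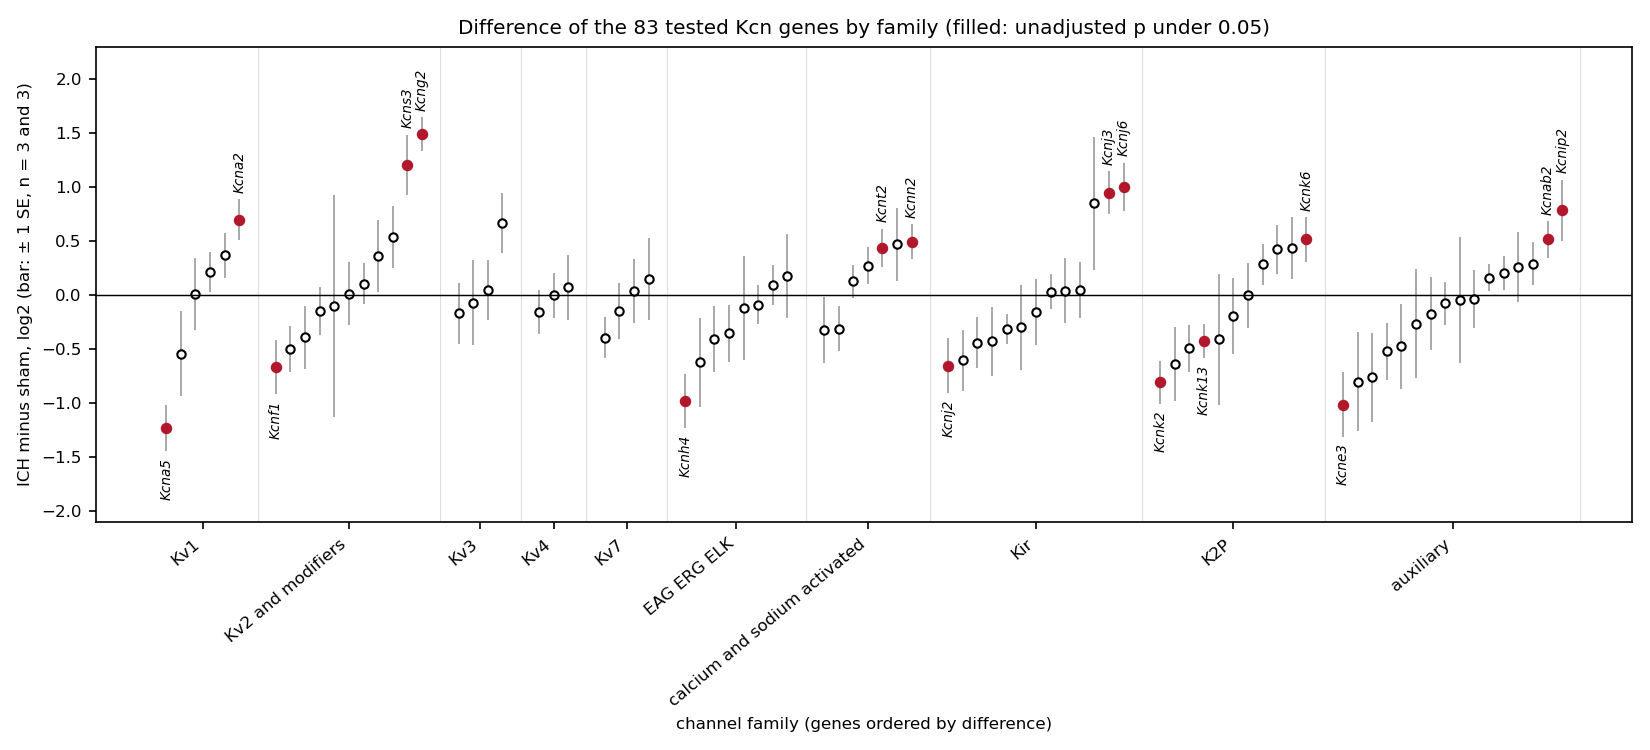
Difference in log2 level, ICH minus sham (y axis), for the 83 tested Kcn genes, grouped by channel family and ordered within each by the difference; bars are ± 1 SE with n = 3 arrays in each group, and filled points have an unadjusted p under 0.05. Every family holds genes on both sides of 0, and the filled points run from −1.24 for Kcna5 to 1.49 for Kcng2.

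Among the Kv1 genes, which encode the pore subunits of low-threshold and axonal delayed rectifiers, 4 of the 6 tested were higher and 2 lower. Kcna5, known from atrial muscle, vessels and glia, stood at −2.73, −2.90 and −3.34 on the sham arrays and at −4.09, −4.49 and −4.08 on the ICH arrays. All ICH arrays were below all sham arrays, by 2.35-fold in the mean (−1.24 ± 0.21, adjusted p = 0.217). Kcna2, a subunit of juxtaparanodes along myelinated axons, pointed the other way. It stood at −5.72, −5.31 and −5.21 on the sham arrays and at −4.53, −4.90 and −4.71 on the ICH arrays, again without overlap (0.70 ± 0.19, adjusted p = 0.301), and normexp background correction gave 0.41. Kcna1, its partner in the same axonal channels, was at 1.53, 1.65 and 1.64 on the sham arrays and at 2.07, 1.46 and 1.94 on the ICH arrays. Its groups overlapped, since ICH 2 was the lowest of the 6 (0.22 ± 0.19, adjusted p = 0.578). Kcna3, a channel of T cells and activated microglia, was not tested, because its signal cleared the background on 1 sham array and 0 ICH arrays.

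The silent Kv subunits form no channel alone and alter the gating of Kv2 channels, and they held the 2 largest positive differences of the set. Kcng2 stood at −3.48, −3.64 and −3.67 on the sham arrays and at −1.87, −2.17 and −2.28 on the ICH arrays. The gap between the groups was larger than the spread in either, and the level was 2.81-fold higher on the ICH arrays (1.49 ± 0.16, adjusted p = 0.117). Kcns3, another silent subunit, stood at −3.55, −3.84 and −3.25 on the sham arrays and at −1.90, −2.82 and −2.30 on the ICH arrays. The groups did not overlap, and ICH 2 was nearest to sham (1.21 ± 0.28, adjusted p = 0.301). Kcnf1, a silent subunit of cortical neurons, was lower on every ICH array, by amounts that differed between them. Its sham values were −2.23, −2.32 and −2.18, and ICH 1 at −2.37 lay close under them while ICH 2 and ICH 3 stood at −3.05 and −3.31 (−0.67 ± 0.25, adjusted p = 0.328). With the slide row as a block this difference was −0.13.

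Kcnb2, a Kv2 pore subunit singled out after its values were seen, differed by −0.50 ± 0.21 (adjusted p = 0.351), with overlapping groups. Over the 9 silent subunits tested, 5 were higher and 4 lower, and the median difference was 0.01. The other 6 silent subunits tested differed by −0.39 to 0.54, and each had an unadjusted p above 0.05.

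Kv3 channels allow fast spiking and Kv4 channels carry the A-type current of dendrites, and none of their 7 tested genes had an unadjusted p under 0.05. Kcnc1, a Kv3 subunit of parvalbumin interneurons, was at −0.71, −0.68 and −0.41 on the sham arrays and at −0.24, −1.15 and −0.28 on the ICH arrays. ICH 2 was the low array, and the difference was 0.05 ± 0.28 (adjusted p = 0.944). Kcnd2, the main dendritic A-type subunit, was at 1.51, 1.68 and 1.63 on the sham arrays and at 1.49, 1.07 and 1.78 on the ICH arrays (−0.16 ± 0.21, adjusted p = 0.705). Its groups overlapped, and 2 probes of the gene gave −0.16 and −0.22.

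Kv7 channels carry the M-current, a slow brake on repetitive firing, and of their 4 tested genes 2 were higher and 2 lower. Kcnq3, a neuronal subunit of that current, was at 0.33, 0.20 and 0.12 on the sham arrays and at 0.32, −0.49 and 0.38 on the ICH arrays. Only ICH 2 lay outside the sham range by more than 0.1 (−0.15 ± 0.26, adjusted p = 0.788), and the other probe gave 0.53.

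In the EAG, ERG and ELK group, the voltage-gated channels with a cyclic-nucleotide-binding-like domain, 2 of 8 were higher and 6 lower. Kcnh4, an ELK channel of the forebrain, had the largest difference among them. It stood at −1.73, −2.29 and −2.58 on the sham arrays and at −3.41, −3.17 and −2.97 on the ICH arrays. All ICH arrays were lower, 1.97-fold in the mean (−0.98 ± 0.25, adjusted p = 0.301), and sham 3 was the sham array nearest to them. The other 7 differed by −0.62 to 0.18, each with an unadjusted p above 0.05.

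Of the 7 calcium- and sodium-activated channel genes, 5 were higher and 2 lower. Kcnn2, a small-conductance channel that follows calcium after a spike, stood at −1.58, −1.48 and −1.46 on the sham arrays and at −0.92, −1.29 and −0.83 on the ICH arrays. The groups did not overlap, and ICH 2 was nearest to sham (0.49 ± 0.16, adjusted p = 0.304). Kcnt2, a sodium-activated channel singled out after its values were seen, was at −3.17, −3.44 and −3.01 on the sham arrays and at −2.78, −2.97 and −2.57 on the ICH arrays (0.44 ± 0.18, adjusted p = 0.339). Kcnma1, the large-conductance channel opened by voltage and calcium together, was at −1.38, −1.21 and −0.99 and then at −0.94, −1.12 and −0.70. Its groups overlapped (0.27 ± 0.17, adjusted p = 0.471), and its 3 probes gave 0.27, 0.87 and 0.05.

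Of the 13 inward rectifier genes tested, 6 were higher and 7 lower. Kcnj3 and Kcnj6 encode G-protein-gated subunits, through which receptors for GABA, opioids and adenosine hyperpolarize neurons. Kcnj3 stood at −5.49, −5.50 and −5.23 on the sham arrays and at −4.51, −4.74 and −4.12 on the ICH arrays. Every ICH array was higher, 1.93-fold in the mean (0.95 ± 0.20, adjusted p = 0.278), and normexp background correction gave 0.64. Kcnj6 was at −0.62, −1.10 and −0.69 on the sham arrays and at −0.18, 0.35 and 0.43 on the ICH arrays. It too was higher on every ICH array (1.00 ± 0.23, adjusted p = 0.301). The other 2 genes of the subfamily were singled out after their values were seen. Kcnj9 had overlapping groups and differed by 0.04 ± 0.30 (adjusted p = 0.953). Kcnj5 was lower on every ICH array, at −3.00, −2.72 and −2.74 on the sham arrays and at −3.12, −4.05 and −3.12 on the ICH arrays (−0.61 ± 0.28, adjusted p = 0.375).

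Classical inward rectifiers hold the resting potential of neurons, endothelium and glia. Kcnj2 stood at −5.96, −6.10 and −6.51 on the sham arrays and at −6.67, −7.31 and −6.55 on the ICH arrays, with ICH 3 just under the lowest sham array (−0.65 ± 0.26, adjusted p = 0.336). It was −0.34 with normexp correction, −0.35 with array weights and −0.42 without ICH 2. Kcnj4, a forebrain channel, was at −2.02, −2.69 and −3.06 and then at −2.87, −2.41 and −2.96. Its groups overlapped fully (−0.16 ± 0.30, adjusted p = 0.809).

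The pair of channels through which astrocytes buffer potassium differed by less than the spread between arrays. Kcnj10, the astrocyte inward rectifier, was at −6.51, −6.00 and −6.33 on the sham arrays and at −6.18, −6.70 and −5.84 on the ICH arrays (0.04 ± 0.26, adjusted p = 0.941). Kcnj16, which joins it in a shared channel, was at −0.61, −0.19 and 0.07 and then at −0.64, −1.23 and −0.14, with ICH 2 the lowest (−0.43 ± 0.32, adjusted p = 0.528). Of 12 astrocyte markers tested, 2 were higher and 10 lower, 3 of the latter at an unadjusted p under 0.05, beside 7.34% of all genes. The log2 of their summed level ran from 5.18 to 5.27 on the sham arrays and from 4.98 to 5.05 on the ICH arrays. Such a sum adds the levels before the log2 is taken, so the brightest probes weigh most in it, here and below. The part of astrocyte content in the Kcnj10 and Kcnj16 values was not tested.

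Among the ATP-sensitive channels, Kcnj8 is the pore subunit of pericytes and vascular muscle, and Kcnj11 that of neurons. Kcnj8 stood at −1.01, −0.93 and −0.89 on the sham arrays and at −0.75, −1.18 and −0.80 on the ICH arrays (0.03 ± 0.16, adjusted p = 0.932). Kcnj11 was at −3.39, −3.41 and −3.21 and then at −3.62, −4.26 and −3.45, so that every ICH array was lower (−0.44 ± 0.23, adjusted p = 0.410). Of 11 markers of pericytes and smooth muscle, 3 were higher and 8 lower, and the log2 of their summed level ran from 3.597 to 3.88 on sham and from 3.41 to 3.55 on ICH arrays. Their part in the Kcnj8 values was not tested.

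Of the 11 two-pore-domain genes tested, 4 were higher and 7 lower. Kcnk2, a leak channel opened by stretch, fatty acids and warmth, stood at 0.68, 0.69 and 0.24 on the sham arrays and at −0.30, −0.49 and −0.02 on the ICH arrays. All ICH arrays were lower, 1.75-fold in the mean (−0.81 ± 0.20, adjusted p = 0.301). Its 3 probes pointed the same way, at −0.81, −0.66 and −0.65. Kcnk13, the main leak channel of microglia in rodents, was at −1.51, −1.27 and −1.52 on the sham arrays and at −1.67, −2.07 and −1.84 on the ICH arrays. It was lower on every ICH array (−0.43 ± 0.16, adjusted p = 0.322), while its other probe gave −0.05 and the mean of both gave −0.24. Of 11 microglial markers tested, 4 were higher and 7 lower, 5 of the latter at an unadjusted p under 0.05, beside 7.34% of all genes. The log2 of their summed level ran from 4.91 to 4.97 on sham and from 4.63 to 4.79 on ICH arrays, and the part of microglial content in the Kcnk13 value was not tested.

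Kcnk6, Kcnn4 and Kcnk5 were higher on ICH 1 and ICH 2 than on ICH 3. Kcnk6, a two-pore channel through which macrophages lose potassium before interleukin-1 release, stood at −2.96, −2.88 and −2.95 on the sham arrays and at −2.12, −2.28 and −2.82 on the ICH arrays (0.52 ± 0.21, adjusted p = 0.337). Its ICH 3 value lay just above the highest sham array. Kcnn4, the intermediate-conductance calcium-activated channel of blood and immune cells, was at −3.17, −3.24 and −3.36 and then at −2.39, −2.41 and −3.57. ICH 3 lay under the sham arrays while the other two lay above (0.47 ± 0.34, adjusted p = 0.514), and its second probe gave 1.05 with ICH 3 again the lowest array. Kcnk5, singled out after its values were seen, was at −4.17, −3.91 and −4.12 and then at −3.28, −3.34 and −4.27 (0.44 ± 0.29, adjusted p = 0.484). Most markers of infiltrating and activated myeloid cells were also higher on ICH 1 and ICH 2 than on ICH 3. For 11 of the 15 tested, as for Kcnn4 and Kcnk5, both ICH 1 and ICH 2 exceeded the whole sham group and ICH 3 did not. Mmp9 and Spp1, like Kcnk6, were above every sham array on all 3 ICH arrays, and Cd44 and Lyz2 were lower on all 3. In the mean 13 were higher and 2 lower, 14 of 16 on the array were well above background on all 6 arrays, and the log2 of their summed level was 3.58, 3.86 and 2.07 on the ICH arrays against 2.36 to 2.66 on the sham arrays. On ICH 3 the brightest of these markers was Lyz2, at 1.08, and it weighed most in that sum. The part of myeloid cells in the levels of Kcnk6, Kcnn4 and Kcnk5 was not tested. Kcne4, Kcnrg and Kcnip3, singled out after their values were seen, showed the pattern of Kcnn4 and Kcnk5 as well. Its share over all genes is not given, so it cannot be read as particular to channels of immune cells.

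Kcnj13 and Kcne2 varied widely between arrays of the same group. Kcnj13, the inward rectifier of choroid plexus epithelium, stood at −1.97, −0.77 and −2.90 on the sham arrays and at −1.47, −1.44 and −0.17 on the ICH arrays. It was highest on ICH 3 and, among the sham arrays, on sham 2 (0.85 ± 0.62, adjusted p = 0.515). Kcne2, an accessory subunit of the same epithelium, was at −2.36, −1.21 and −2.01 and then at −1.87, −3.00 and −0.85, with the same 2 arrays at the top (−0.05 ± 0.58, adjusted p = 0.976). Of 10 choroid plexus and ependymal markers tested, 7 were higher and 3 lower, 7 of 10 on the array were well above background on all 6 arrays, and the log2 of their summed level was 1.58, 3.50 and 2.47 on the sham arrays and 2.54, 2.28 and 3.27 on the ICH arrays. The highest arrays of that sum were sham 2 and ICH 3 as well. Ttr, the brightest of these markers at 2.84 on sham 2 and 2.61 on ICH 3, weighed most in it. Single markers were split. Kl, Folr1, Clic6, Slc4a5 and Sostdc1 were highest on ICH 3. Ttr, Otx2, Aqp1 and Tmem212 were highest on sham 2, and Foxj1 on ICH 2. The part of choroid plexus tissue in these values was not tested. Kcnj10, Kcnd2, Kcnip4 and Kcnq1 also had ICH 3 highest and sham 2 next, which was seen after the values were known. That order is thus not particular to Kcnj13 and Kcne2.

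**Figure D3:**
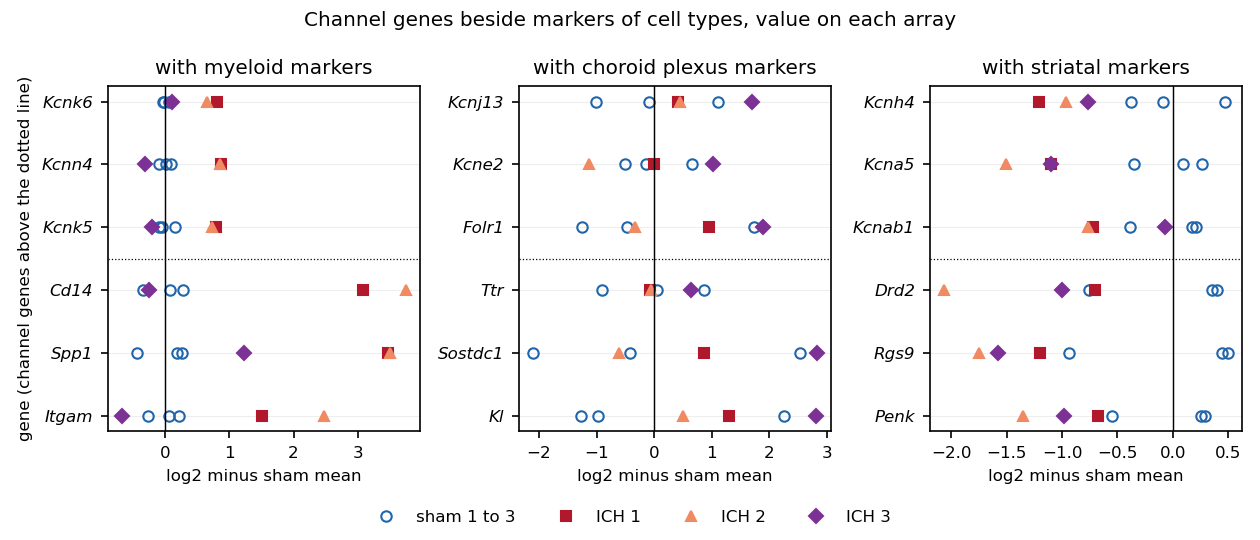
Log2 level on each array minus the sham mean (x axis) for channel genes above the dotted line and cell type markers below it, with open circles for sham arrays and filled symbols for ICH 1 to 3. Kcnk6, Kcnn4 and Kcnk5 separate ICH 1 and ICH 2 from ICH 3 as Cd14 and Itgam do. Kcnj13 and Kcne2 are highest on ICH 3 as Folr1, Sostdc1 and Kl are, while Ttr is highest on a sham array. For the striatal markers on the right, 1 sham array lies near the ICH arrays.

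Markers of brain regions differed between the arrays as well. All 18 striatal projection neuron markers tested were lower, 11 of them at an unadjusted p under 0.05, beside 7.34% of all genes. The log2 of their summed level was 5.58, 5.56 and 4.84 on the sham arrays and 4.61, 4.23 and 4.57 on the ICH arrays. Of 14 cortical projection neuron markers, 12 were higher and 2 lower, with summed levels of 3.80, 3.19 and 3.43 on sham and 3.88, 4.24 and 4.07 on ICH arrays. Sham 3 was the sham array nearest to the ICH arrays for the striatal sum. It was so too for 6 of the 7 channel genes lower at an unadjusted p under 0.05, the other being Kcnf1, nearest on sham 2. Among the 6, Kcnk13 had sham 1 at −1.51 almost level with sham 3 at −1.52. Sham 2 was the lowest sham array for the cortical sum, and it was the lowest for 5 of the 10 higher channel genes, with sham 1 the lowest for 3 and sham 3 for 2. The shares over all genes are not given for these counts, so they cannot be read as particular to the channel genes. Thalamic and interneuron markers were 1 of 7 and 0 of 8 higher, with summed levels of 1.63 to 3.01 and 3.84 to 4.06 on sham and 0.88 to 2.96 and 3.38 to 3.66 on ICH arrays. The part of regional makeup in any channel gene's difference was not tested.

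The accessory subunits, which bind pore subunits and set their gating or transport, had 6 of 16 higher and 10 lower. Kcnab2, a cytoplasmic beta subunit of Kv1 channels, stood at −4.11, −4.19 and −3.99 on the sham arrays and at −3.45, −3.87 and −3.42 on the ICH arrays. The groups did not overlap, and ICH 2 was nearest to sham (0.52 ± 0.17, adjusted p = 0.304). Kcnip2, a calcium-binding subunit of Kv4 channels, was at −3.76, −3.95 and −4.71 and then at −3.17, −3.62 and −3.28. Every ICH array was higher, and sham 3 was the lowest array (0.78 ± 0.28, adjusted p = 0.315), without which the difference was 0.50. The other 3 genes of that subfamily, singled out after their values were seen, differed by −0.48 for Kcnip1, 0.16 for Kcnip3 and −0.17 for Kcnip4. Kcne3, a single-pass subunit, was near background throughout, being well above it on 2 sham arrays and 1 ICH array. Its values were −7.39, −7.42 and −7.90 on the sham arrays and −8.03, −8.66 and −9.07 on the ICH arrays (−1.01 ± 0.30, adjusted p = 0.301), and normexp background correction gave −0.26. Over the 5 genes of its subfamily 1 was higher and 4 lower, and the 3 tested beta subunits of the large-conductance channel differed by −0.27 to −0.04.

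Several genes were read by more than 1 probe, and the probes did not always point the same way. Of the 24 genes with more than 1 probe kept, 17 had all probes on one side of 0 and 7 did not. In 4 of these 7 the probes lay more than 0.5 apart, among them, with the probe used here given first, Kcnq3 with −0.15 and 0.53, Kcnab1 with −0.52 and 0.34 and Kcna7 with −0.54 and 0.31. Within the same side, the probes of Kcnc2, a Kv3 subunit, gave −0.07 and −0.66. Those probes carry different transcript accessions of the gene, as the brightest probe of Kcnk2 does against its other probes. Kcna7, Kcnab1 and Kcnc2 were singled out after their values were seen.

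The 8 Kcn genes left untested were Kcna3, Kcna10, Kcnj1, Kcnj15, Kcnk15, Kcnk18, Kcnmb3 and Kcns2. None was well above background on more than 2 of the 6 arrays, and Kcns2 was so on 2 ICH arrays and 0 sham arrays. Kcnj1 is known as a kidney channel and Kcnk18 as a channel of sensory ganglia.

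Genes that act with the channels also lay on both sides of 0. The 31 tested partners hold the sulfonylurea receptors, anchoring and transsynaptic proteins, calmodulins and related channels. Of these, 12 were higher and 19 lower, and 0 were called. At an unadjusted p under 0.05 there were 3 higher and 5 lower, beside 7.02% and 7.34% of all genes. Lrrc26, an auxiliary subunit of the large-conductance channel, was at −7.05, −7.11 and −7.15 and then at −7.73, −7.77 and −7.48, lower on each ICH array (−0.56 ± 0.14, adjusted p = 0.301). It was near background, being well above it on 4 of the 6 arrays. Of 20 tested potassium pumps, cotransporters and their kinases, 7 were higher and 13 lower, and 0 were called. With an unadjusted p under 0.05 there were 0 higher and 1 lower, beside 7.02% and 7.34% of all genes. Atp1b1, a beta subunit of the sodium-potassium pump, was at 2.55, 2.39 and 2.39 on the sham arrays and at 1.68, 2.02 and 2.15 on the ICH arrays, lower on each (−0.49 ± 0.17, adjusted p = 0.304). Slc12a4, a potassium-chloride cotransporter, was at −1.04, −1.12 and −1.13 and then at −0.57, −0.59 and −0.99 (0.38 ± 0.16, adjusted p = 0.346).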

How the data were processed

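Total RNA was labelled with Cy3 by linear amplification, per the labels' protocols, and hybridized to 6 single-colour Agilent arrays. Per the file headers, the authors' intensity values are background-subtracted signals from Agilent Feature Extraction 11.5.1.1, on a design annotated on build rn4. The submitters' processing notes name version 10.7. The deposited log2 table holds, for 100% of probes within 0.001, the mean log2 intensity of a probe's spots on another offset per array, 0.28 to 0.32 higher. This match left out spots flagged 1 rather than 0 for non-uniformity or as population outliers, per the file headers.

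Here the log2 intensity was centred on each array's 75th percentile over spots other than controls, the same marked spots were left out, and the remaining spots of each probe were averaged. Probes were kept if at least 0.5 of their spots were well above background on at least 3 of 6 arrays. Each symbol was read from its brightest probe by mean. RefSeq (GRCr8) gave 1 symbol for 18355 of 30367 probes and none for 12012. ICH and sham were compared by lmFit and eBayes of limma (version 3.58.1, R 4.3.3) with 6.12 degrees of freedom, and p-values were adjusted by Benjamini-Hochberg across 22179 rows. The script was tested on simulated data. Tables and figures were made with Python 3.11.15, pandas 2.3.3 and matplotlib 3.10.9.

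Kcn genes were named if among the 14 with the lowest p, if they had the largest difference of a family, or if known for a cell type or role in brain, and partners if among the 2 with the lowest p of a list. Some genes that this rule names are not reported here. Other names were singled out after their values were seen. The members, the lists and the rule were chosen with earlier results of these data known. The alternatives were background correction, scaling, filters, probe choice, variance model, array weights, blocks and leaving out each array. Keeping all marked spots was added after seeing the data.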

Additional observations from a re-analysis of the deposited data

How the results depend on the processing

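The count of 0 Kcn genes called held under all 20 alternatives, and limma without adjustment gave 10 higher and 7 lower. Spike-in centring gave 17 and 1, with every ICH array above every sham array for 23 genes and below for 2, and a median of 0.32. The slide row as a block gave 3 lower. Leaving out 1 array gave 6 to 15 higher and 4 to 14 lower, 12 to 19 with every ICH array above and 13 to 21 below, and medians from −0.14 to 0.09. The cause of these moves was not tested. For any gene set, leaving out an array can only keep or raise the counts of groups without overlap. The shares over all genes are not given for these counts or for the 23 and 2 under spike-in centring, so they are no result about Kcn genes. Normexp correction used the median spot signal, as the mean spot signal was not used here, and Kcne3 had no value under the filter on all 6 arrays.

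Genes near 0 turned sign. With median centring Kcnc1 was −0.030, Kcnj10 −0.030 and Kcnj8 −0.044. With spike-in centring Kcnd2 was 0.21, Kcne2 0.32, Kcnj4 0.21 and Kcnq3 0.22. The mean of the probes gave 0.19 for Kcnq3, array weights gave 0.37 for Kcne2 and 0.11 for Kcnq3, and the slide row block gave 0.10 for Kcnq3. Leaving out 1 array gave −0.11 to 0.34 for Kcnc1, −0.33 to 0.031 for Kcnd2, −0.57 to 0.50 for Kcne2, −0.15 to 0.27 for Kcnj10, −0.39 to 0.13 for Kcnj4, −0.050 to 0.17 for Kcnj8 and −0.30 to 0.13 for Kcnq3. Over all alternatives Kcnj9 ran from −0.26 to 0.41, Kcnip4 from −0.46 to 0.20 and Kcnc2 from −0.45 to 0.30.

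The sample titles do not say whether the replicate numbers pair the arrays. Deviations of arrays with the same number correlated at −0.19, −0.01 and 0.07 over all rows. Those of arrays with different numbers correlated at −0.13 to 0.17. With so few arrays these values cannot decide whether there was pairing. With the replicate block 8 Kcn genes were higher and 6 lower at an unadjusted p under 0.05, beside 4.69% and 5.38% of all genes, and 0 were called.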
